A study of Mus musculus with 12 samples.

Results

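The erythroid genes described here are 9 genes of red cell precursors, Car1, Car2, Klf1, Gata1, Epor, Alas2, Ermap, Rhag and Slc4a1, taken by symbol from a table of raw read counts for 24421 gene symbols. All 9 were in the table, and all 9 passed the filter on low counts that left 12744 genes for testing. The libraries came from mouse bone marrow cells sorted as GFP-positive, lineage-negative, positive for c-Kit and Sca-1 (LSK). That sort enriches haematopoietic stem cells and their immediate multipotent offspring. The cells were taken from secondary recipient mice, which had been engrafted with stem and progenitor cells of 1 of 4 genotypes, with 3 libraries each. The groups are miR146aKO_Runx1mut (genotype miR-146aKO/Runx1S291fsX300, libraries A001, A031 and A051), miR146aKO (genotype miR-146aKO, titled Mir-146 KO/Empty, libraries A047, A150 and A151), Runx1mut (genotype Runx1S291fsX300, libraries A021, A042 and A058) and wildtype (wildtype for miR-146a and Runx1, titled Empty, libraries A015, A040 and A053). All groups share the transplantation and the GFP sort. The sources used here give neither the meaning of Empty, nor the route by which mutant Runx1 entered the cells, nor the age and strain of the mice. Nothing in the labels ties a library to its own animal, and a p-value here covers the spread between these libraries only. Values of 3 libraries below are given in the order in which the libraries are listed here.

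Red cells form from progenitors that respond to erythropoietin and then switch on, under the transcription factors Gata1 and Klf1, the genes for haem, haemoglobin and the red cell membrane. Gata1 also acts in megakaryocytes, mast cells and eosinophils, whereas Klf1 is largely a red cell factor. Lineage antibodies of a stem cell sort normally include one against red cell precursors, so such genes are usually low in LSK cells.

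Library depth ran from 4907029 to 6522388 counts in miR146aKO_Runx1mut, from 3540043 to 4353971 in miR146aKO, from 5417624 to 7026393 in Runx1mut and from 4387524 to 6642886 in wildtype. One library went against its label. Mir146 had 14 counts in A031, labelled miR146aKO_Runx1mut, and 0 in the 11 other libraries, among them the 6 of genotypes with intact miR-146a, so that zeros check no label. Runx1 averaged 190 ± 69.5 CPM in miR146aKO_Runx1mut, 139 ± 36.3 in miR146aKO, 374 ± 211 in Runx1mut and 279 ± 69.8 in wildtype (SD, n = 3 each), and gene-level counts cannot show a frameshift. Kit, the receptor used in the sort, averaged 187 ± 28.6, 44.0 ± 17.9, 308 ± 349 and 339 ± 111 CPM in the same order of groups, and Ly6a, which encodes Sca-1, averaged 50.6 ± 61.1, 755 ± 258, 138 ± 105 and 142 ± 87.0 CPM. Both gate genes were thus detected in every group. Of 12 genes of the gate and of stem cells, however, 11 had negative fold changes against wildtype in miR146aKO_Runx1mut (median -2.11), in miR146aKO (median -2.65) and in Runx1mut (median -1.61). Libraries of 7 of the 12 lay below wildtype without overlap in miR146aKO_Runx1mut, against 7.17% of all genes, and of 8 in miR146aKO, against 10.3%. At an adjusted p under 0.05 the count test of edgeR called none of the 12, and that of DESeq2 called 2 lower in each of these 2 comparisons (0.667% and 2.26% of all genes), Kit among them in miR146aKO. Ly6a went the other way in miR146aKO. It was the 1 of the 12 that DESeq2 called higher there (4.38% of all genes), and the 1 above wildtype without overlap, against 10.7%. The part of this in the erythroid values was not tested. CPM is the count scaled to a library total of 1e6 after TMM scaling. The mean of 4 Y-linked genes ran from 3.45 to 53.5 CPM in miR146aKO_Runx1mut, from 24.8 to 60.4 in miR146aKO, from 6.54 to 42.4 in Runx1mut and from 0.137 to 7.99 in wildtype, so these genes were not balanced over the groups.

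The 9 genes lie on 7 chromosomes of the mouse build GRCm38. Car1 (chr3:14766216-14808368, minus strand) and Car2 (chr3:14886273-14900770, plus strand) are neighbours, 77904 bases apart, and their transcripts share no run of identical bases longer than 15. On the plus strand, Klf1 lies at chr8:84901928-84905291 and Rhag at chr17:40811126-40840754. On the minus strand, Gata1 lies at chrX:7959260-7978071, Epor at chr9:21958897-21963506, Ermap at chr4:119175457-119190011 and Slc4a1 at chr11:102348824-102366203. Alas2 (chrX:150547375-150570638, plus strand) shares exon sequence with Apex2 and the microRNA gene Mir3620 on the other strand, and since these libraries do not keep strand, reads of Alas2 and Apex2 cannot be told apart there. Apex2 itself had 0 to 70 counts, with 10 in A031 and 0 in A051, the 2 libraries with most Alas2 counts. Words of 50 bases shared with other annotated transcripts were found for Car1 (1 gene), Alas2 (2), Ermap (2) and Rhag (3), and for none of the other 5.

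The promoters of the members were also searched for short words of bases. Whether such words bear on the levels of the genes was not tested. RefSeq promoters, 300 bases from 250 before to 50 after the gene's start on GRCm38.p6, were given for 6 of the 9 genes (Klf1, Gata1, Epor, Alas2, Ermap and Rhag). The RefSeq start lay 16 to 70 bases from the start of the gene span above in 5 of them. In Gata1 it was the start of another annotated transcript, 10161 bases inside the span, and the outermost start of Gata1 was not searched. A GATA word, spelled AGATAA or AGATAG or TGATAA or else TGATAG on either strand, stood in 5 of the 6, against 29.8% of 32851 promoters. In each of the 5 it lay on the strand opposite the gene, at base -80 in Klf1, -54 in Epor, -86 in Alas2, -67 in Ermap and -31 in Rhag (the first base of the word, counted from the start). A CACCC-type box, CCNCNCCC on either strand, stood in 3 of the 6 (Gata1, Epor and Alas2), against 49.5% of promoters. The words may overlap each other, and a match is a description of letters, not of a bound site. The promoters of Klf1, Epor and Ermap, which hold the word, and that of Gata1 at this inner start, which holds none, are printed below, 5′ to 3′ on the gene's strand, to set the promoter of the GATA factor itself beside those of 3 genes whose 4 highest libraries were the same. Alas2 and Rhag hold the word too, and their 4 highest libraries were not those 4. Capitals mark the GATA word as it reads on the gene's strand, TTATCA for TGATAA and TTATCT for AGATAA.
Klf1 (chr8:84901732-84902031, plus strand): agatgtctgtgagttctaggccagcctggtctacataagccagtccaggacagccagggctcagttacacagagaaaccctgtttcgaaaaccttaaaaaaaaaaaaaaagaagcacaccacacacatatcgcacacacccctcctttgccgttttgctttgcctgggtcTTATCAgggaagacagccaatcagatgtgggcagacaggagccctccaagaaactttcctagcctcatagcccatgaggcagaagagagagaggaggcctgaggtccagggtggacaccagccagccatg
Epor (chr9:21963527-21963826, minus strand): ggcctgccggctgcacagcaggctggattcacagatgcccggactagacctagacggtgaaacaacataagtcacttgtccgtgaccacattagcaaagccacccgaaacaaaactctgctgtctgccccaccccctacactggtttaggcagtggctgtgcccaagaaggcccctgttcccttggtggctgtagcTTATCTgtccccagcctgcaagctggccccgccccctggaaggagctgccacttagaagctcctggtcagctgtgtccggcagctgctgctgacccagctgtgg
Ermap (chr4:119189946-119190245, minus strand): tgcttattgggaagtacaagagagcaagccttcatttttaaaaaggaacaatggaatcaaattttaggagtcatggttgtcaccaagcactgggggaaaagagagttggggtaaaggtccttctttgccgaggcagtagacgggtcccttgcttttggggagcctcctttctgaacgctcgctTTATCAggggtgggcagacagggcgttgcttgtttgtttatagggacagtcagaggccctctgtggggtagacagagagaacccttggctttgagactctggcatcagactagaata
Gata1 (chrX:7967861-7968160, minus strand): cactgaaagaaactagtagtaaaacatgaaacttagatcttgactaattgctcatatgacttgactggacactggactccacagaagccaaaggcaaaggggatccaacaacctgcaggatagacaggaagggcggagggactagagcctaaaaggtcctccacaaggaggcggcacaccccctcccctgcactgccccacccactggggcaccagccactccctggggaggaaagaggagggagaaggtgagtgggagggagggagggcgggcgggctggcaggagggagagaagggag

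Of the 12 libraries, 4 carried most of the erythroid signal. A031 and A051, labelled miR146aKO_Runx1mut, and A150 and A151, labelled miR146aKO, were the 4 highest libraries for 5 of the 9 genes (Car1, Klf1, Epor, Ermap and Slc4a1). They held 99.5% of all Car1 counts, 97.1% of Ermap, 95.7% of Slc4a1, 90.6% of Klf1, 88.8% of Alas2, 86.3% of Rhag and 81.2% of Epor, but 54.5% of Gata1 and 28.3% of Car2. The remaining library of each of those groups, A001 and A047, was low: A001 had 10 or more counts for 1 of the 9 genes and A047 for 2. With Car2 left aside, both groups without miR-146a thus spanned libraries with little erythroid signal and the libraries with the most. With Car2 counted, the 9 genes summed to 449 CPM in wildtype A015, against 443 in A150 and 256 in A151. In bulk samples fewer cells of a type and less RNA per cell cannot be told apart.

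**Figure D1:**
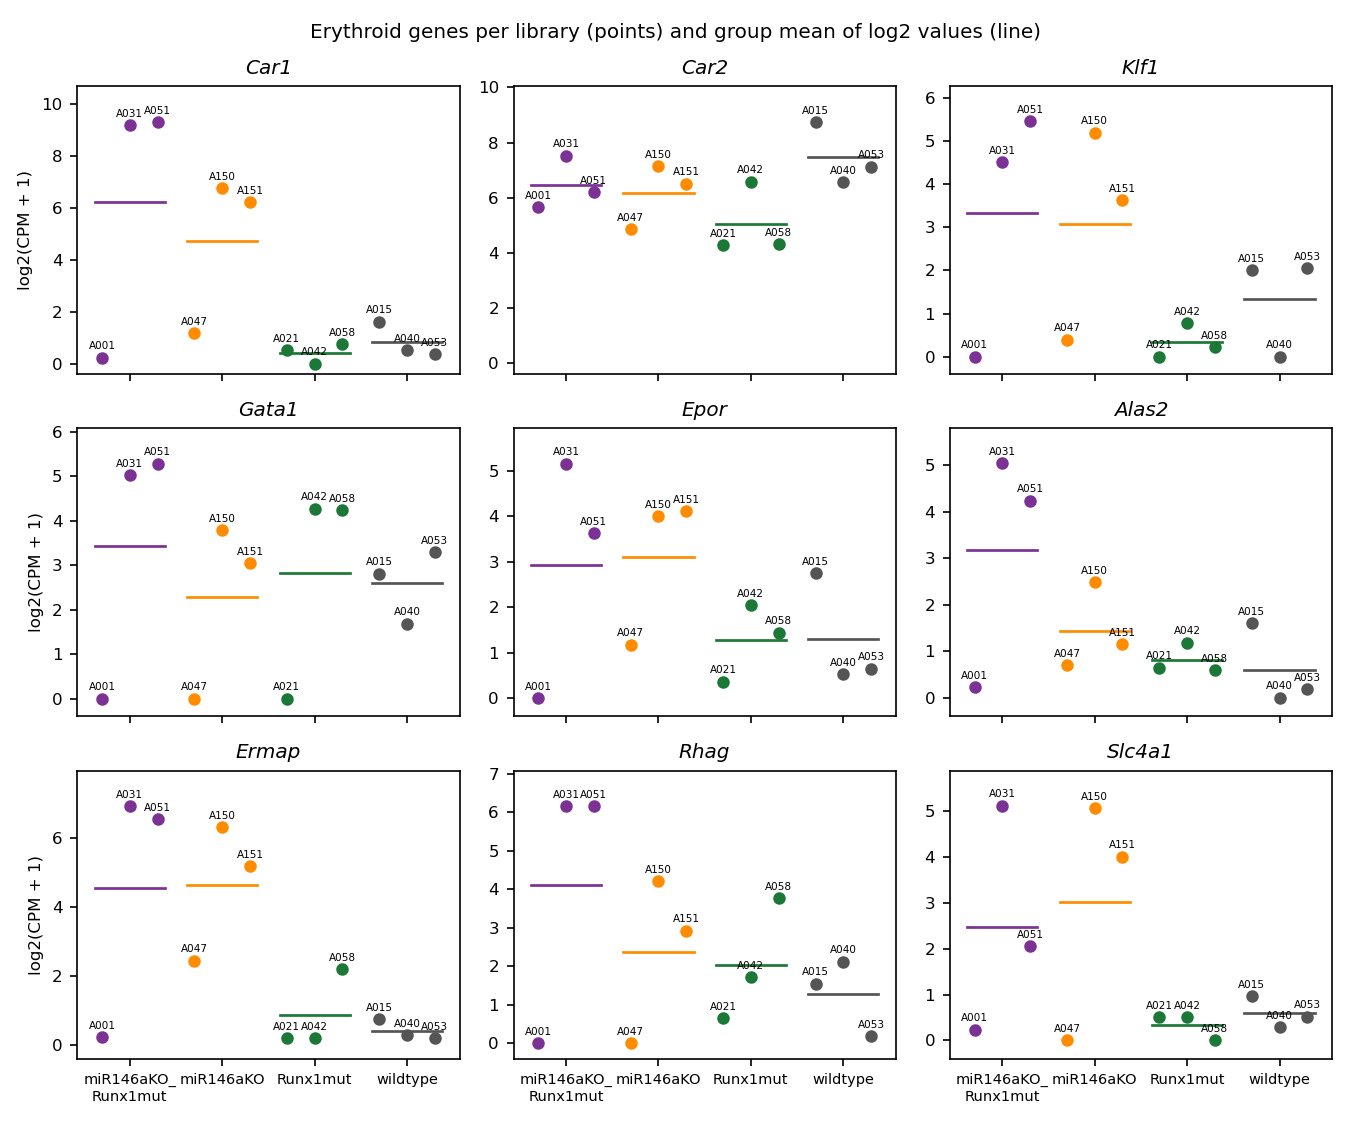
Each panel shows 1 of the 9 genes, with log2(CPM + 1) on the vertical axis, 1 point per library and a line at the group mean of the log2 values, for miR146aKO_Runx1mut, miR146aKO, Runx1mut and wildtype. A031, A051, A150 and A151 are the 4 highest libraries for 5 genes, while Car2 is detected in all 12 libraries and is highest in the wildtype library A015.

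Of the transcription factors, Klf1, an activator of red cell genes, stood at 0, 21.9 and 42.9 CPM in miR146aKO_Runx1mut, at 0.316, 35.6 and 11.4 in miR146aKO, at 0, 0.711 and 0.171 in Runx1mut and at 3.01, 0 and 3.13 in wildtype. Wildtype A015 and A053 each had 22 counts, whereas the highest Runx1mut library had 5. Gata1, a factor that acts in several lineages, stood at 0, 31.6 and 38.1 CPM in miR146aKO_Runx1mut, at 0, 12.8 and 7.30 in miR146aKO, at 0, 18.4 and 17.8 in Runx1mut and at 6.02, 2.22 and 8.83 in wildtype. Gata1 and Klf1 therefore parted in Runx1mut: A042 and A058 had 129 and 104 Gata1 counts with 5 and 1 Klf1 counts, while A150 had 53 Gata1 and 147 Klf1 counts. A042 also had 9971 counts of Cpa3, a mast cell protease, and A058 had 411. Pf4, a megakaryocyte chemokine, had 415 and 1234 counts there, and both genes were chosen as examples after their values were seen. Other libraries went another way. Runx1mut A021 had 562 Cpa3 counts with 0 of Gata1. Pf4 had 1285 counts in wildtype A015 with 44 of Gata1, and 1880 and 1541 in A031 and A051, where Klf1 was high too. The source of the Gata1 counts was not tested.

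**Figure D2:**
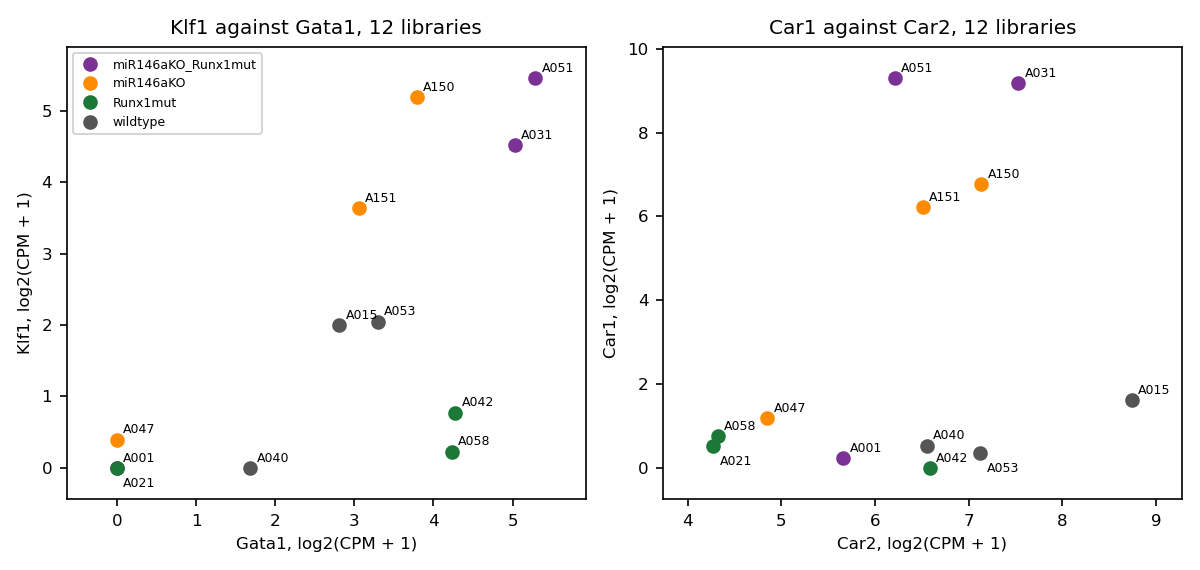
Left, Klf1 against Gata1, and right, Car1 against Car2, each as log2(CPM + 1), with 1 point per library coloured by group. The Runx1mut libraries A042 and A058 have 18.4 and 17.8 CPM of Gata1 with 0.711 and 0.171 CPM of Klf1, and the wildtype library A015 has the most Car2 with 2.05 CPM of Car1.

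Epor, the erythropoietin receptor, stood at 0, 34.8 and 11.4 CPM in miR146aKO_Runx1mut, at 1.26, 15.0 and 16.3 in miR146aKO, at 0.284, 3.13 and 1.71 in Runx1mut and at 5.75, 0.444 and 0.570 in wildtype. Its 4 highest libraries were A031, A151, A150 and A051, and the groups overlapped in each comparison. Alas2, the rate-limiting enzyme of haem synthesis in red cells, stood at 0.172, 32.0 and 17.9 CPM in miR146aKO_Runx1mut, at 0.632, 4.60 and 1.22 in miR146aKO, at 0.568, 1.28 and 0.513 in Runx1mut and at 2.05, 0 and 0.142 in wildtype. Apart from A031 and A051, which had 180 and 74 counts, no library had more than 19 Alas2 counts.

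Of the membrane genes, Ermap and Slc4a1 were nearly limited to the same libraries, and Rhag less so. Ermap, a protein of the erythroblast membrane, stood at 0.172, 119 and 90.9 CPM in miR146aKO_Runx1mut, at 4.43, 78.2 and 35.1 in miR146aKO, at 0.142, 0.142 and 3.59 in Runx1mut and at 0.684, 0.222 and 0.142 in wildtype. Rhag, a partner of the Rh blood group proteins, stood at 0, 70.0 and 70.3 CPM in miR146aKO_Runx1mut, at 0, 17.4 and 6.57 in miR146aKO, at 0.568, 2.28 and 12.7 in Runx1mut and at 1.92, 3.33 and 0.142 in wildtype. Slc4a1, the anion exchanger band 3, stood at 0.172, 33.8 and 3.15 CPM in miR146aKO_Runx1mut, at 0, 32.4 and 15.1 in miR146aKO, at 0.426, 0.427 and 0 in Runx1mut and at 0.958, 0.222 and 0.427 in wildtype. A051 had 13 Slc4a1 counts beside 375 of Ermap and 290 of Rhag, so the membrane genes did not keep 1 ratio across the high libraries. Ermap alone of the 9 genes was higher in all 3 miR146aKO libraries than in all 3 of wildtype, as were 10.7% of all genes tested, so that 1 of 9 is near that share.

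The carbonic anhydrases behaved unlike each other. Car1, an enzyme of red cell precursors, stood at 0.172, 579 and 628 CPM in miR146aKO_Runx1mut, at 1.26, 108 and 73.3 in miR146aKO, at 0.426, 0 and 0.684 in Runx1mut and at 2.05, 0.444 and 0.285 in wildtype. Car2, which many other blood and bone cells also make, stood at 49.6, 184 and 73.0 CPM in miR146aKO_Runx1mut, at 27.8, 139 and 90.1 in miR146aKO, at 18.3, 95.0 and 19.0 in Runx1mut and at 426, 92.8 and 138 in wildtype. Car2 was detected in all 12 libraries and Car1 at 10 or more counts in 5. The ratio of Car1 to Car2 counts was 3.16 in A031, 8.60 in A051, 0.773 in A150 and 0.814 in A151, and at most 0.0455 in the other 8 libraries.

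**Figure D3:**
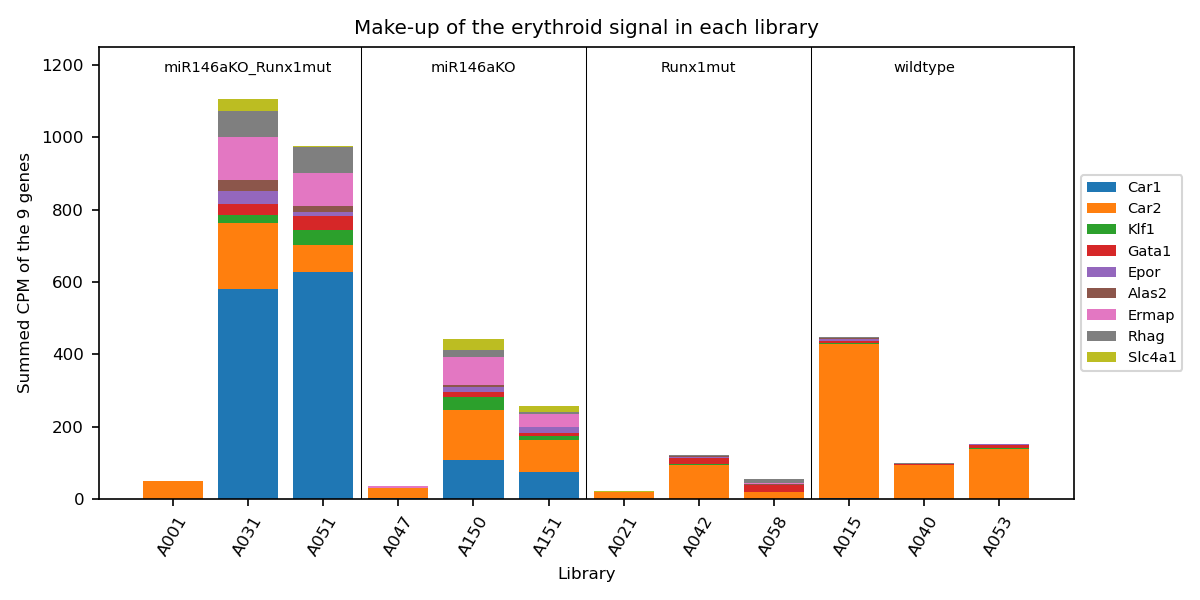
Bars give the summed CPM of the 9 genes in each of the 12 libraries, stacked by gene and ordered by group (miR146aKO_Runx1mut, miR146aKO, Runx1mut, wildtype). Car1 makes up 52.4% of the sum in A031 and 64.4% in A051, while Car2 makes up 91.0% to 95.0% of it in wildtype.

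Levels between genes can be set side by side as CPM per kilobase of exon. On that scale Car1 led in miR146aKO_Runx1mut (323 ± 280, SD, n = 3) and in miR146aKO (48.7 ± 43.5), with Car2 next at 42.1 ± 29.5 and 35.4 ± 23.1. In Runx1mut and wildtype Car2 led at 18.2 ± 18.2 and 90.5 ± 74.7, followed by Gata1 at 4.94 ± 4.28 and 2.33 ± 1.36, and the 7 other genes averaged at most 2.21 and 1.34. Car2 was above Gata1 in every Runx1mut and wildtype library, and the libraries of all other neighbours in these orders overlapped. Without Car2 and Car1 the other 7 genes gave sums of 0.517, 343 and 275 CPM in miR146aKO_Runx1mut, 6.64, 196 and 93.0 in miR146aKO, 1.99, 26.3 and 36.4 in Runx1mut and 20.4, 6.44 and 13.4 in wildtype.

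The comparison of miR146aKO_Runx1mut with wildtype asks what both lesions together do. The quasi-likelihood test of edgeR, fitted on all 12 libraries and adjusted over 12744 genes by Benjamini-Hochberg, called 0 of the 9 genes at an adjusted p under 0.05, and 0% of all genes. At an unadjusted p under 0.05 in edgeR, 5 of 9 were higher, against 4.99% of all genes. Fold changes were positive for 8 of 9 genes, against 51.3% of all genes, with a median of 4.44 on the log2 scale, against 0.03 over all genes. Car1 had a log2 fold change of 8.68 ± 2.05 (SE, edgeR adjusted p = 0.356), Ermap of 7.51 ± 1.94 (adjusted p = 0.366) and Car2 of -1.10 ± 0.79 (adjusted p = 0.681). DESeq2 called 2 of the 9, against 0.840% of all genes that it called higher, Car1 (adjusted p = 0.00108) and Ermap (adjusted p = 0.000160). It called the same 2 without A031, the library with Mir146 counts (Car1 8.36, adjusted p = 0.00868; Ermap 6.97, adjusted p = 0.00362), and limma-voom called 0 and 0% of all genes. Without a low-count filter edgeR also called Car1 and Ermap, against 1.33% of all genes. Of the 9 genes 0 were higher without overlap, against 6.32% of all genes, since A001 lay within or below the wildtype range for each. Without A031 the median was 3.36, and with the Y-linked genes as a covariate it was 2.61.

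The comparison of miR146aKO with wildtype asks what loss of miR-146a does alone. By edgeR 0 of the 9 genes were called, against 0.180% of all genes, and 3 were higher at an unadjusted p under 0.05 (Ermap, Car1 and Slc4a1), against 8.81% of all genes. Fold changes were positive for 8 of 9, against 49.9% of all genes, with a median of 2.25, against -0.00301 over all genes. Ermap had a log2 fold change of 6.68 ± 1.88 (edgeR adjusted p = 0.122), Car1 of 5.95 ± 1.85 (adjusted p = 0.151), Slc4a1 of 4.80 ± 1.99 (adjusted p = 0.262) and Car2 of -1.35 ± 0.80 (adjusted p = 0.440). Libraries did not overlap for 1 of the 9 (Ermap), against 10.7% of genes that were higher without overlap. DESeq2 called 2 of the 9, against 4.38% of all genes that it called higher, Ermap (adjusted p = 0.000368) and Car1 (adjusted p = 0.0265). The Ermap call held in DESeq2 without any 1 of the 6 libraries, while the Car1 call was lost without A150, A151, A040 or A053 (adjusted p = 0.155, 0.118, 0.115 and 0.125). EdgeR without a low-count filter called the same 2, against 4.14% of all genes. The median was 4.35 without A015 and 0.92 with the Y-linked covariate.

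In Runx1mut against wildtype, which asks what the mutant factor does alone, edgeR called 0 of the 9 genes and 0% of all genes, and 1 gene, Car2, was lower at an unadjusted p under 0.05, against 2.88% of all genes. Car2 averaged 44.1 ± 44.1 CPM in Runx1mut and 219 ± 181 in wildtype (SD, n = 3 each), a log2 fold change of -2.31 ± 0.82 (edgeR adjusted p = 0.755). DESeq2 gave Car2 an adjusted p of 0.155 and called 0 of the 9, against 0.918% of all genes, while edgeR without a low-count filter called Car2 (adjusted p = 0.0235), against 0.843% of all genes. Fold changes were positive for 4 of 9, against 50.3% of all genes, and their median was -0.41, which became 1.12 without the wildtype library A015, 0.10 without A021 and -1.11 with the Y-linked covariate.

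**Figure D4:**
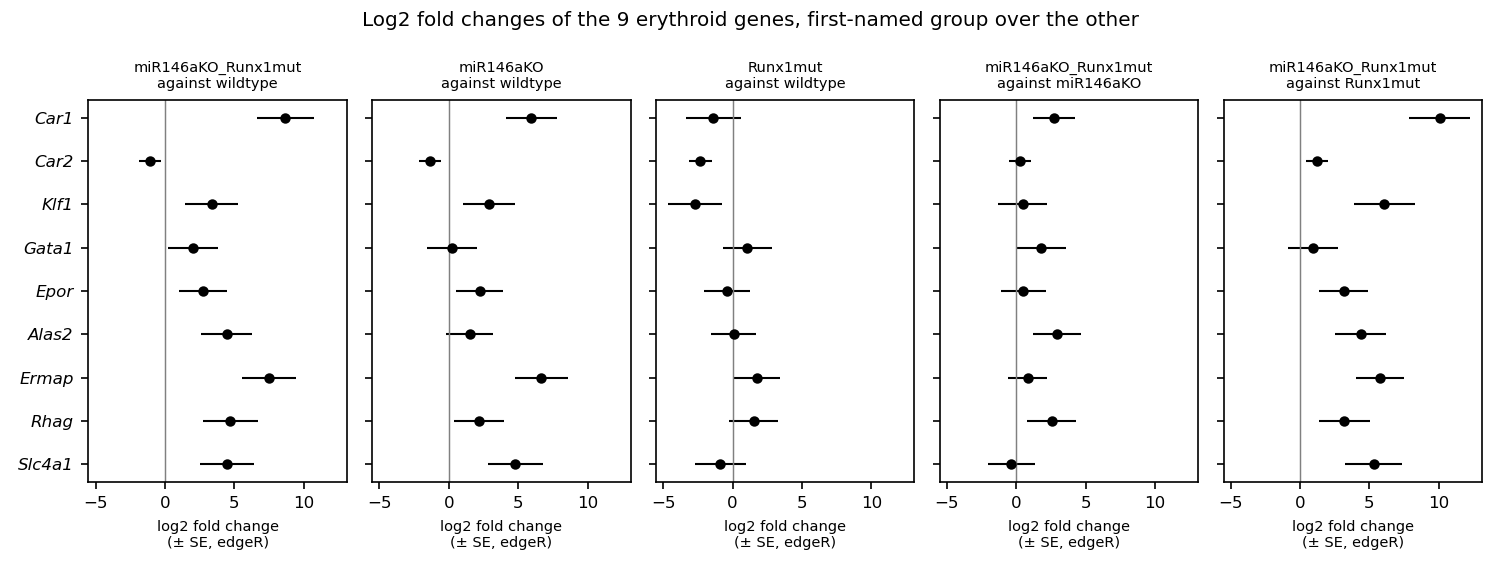
Log2 fold changes (points) with standard errors (bars) from edgeR for the 9 genes in 5 comparisons, the first-named genotype over the second. Values lie to the right of 0 for 8 of 9 genes in both comparisons of a miR-146a knockout genotype with wildtype, with Car2 to the left, and the bars reach 0.79 to 2.05 to each side in miR146aKO_Runx1mut against wildtype.

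Where miR-146a loss was added to mutant Runx1 (miR146aKO_Runx1mut against Runx1mut), all 9 fold changes were positive, against 50.4% of all genes, with a median of 4.36, against 0.00595 over all genes. EdgeR called 0 of the 9 and 0% of all genes, and 5 of the 9 were higher at an unadjusted p under 0.05, against 2.88% of all genes. Car1 had a log2 fold change of 10.04 ± 2.21 (edgeR adjusted p = 0.763) and rank 4 by p of all genes tested, and Ermap had 5.76 ± 1.75 (adjusted p = 0.974). DESeq2 called 2 of the 9, against 0.549% of all genes that it called higher, Car1 (adjusted p = 0.000170) and Ermap (adjusted p = 0.00933). Without A031 DESeq2 still called Car1 (adjusted p = 0.00351) but not Ermap (adjusted p = 0.0631), and the Ermap call was also lost without A051, A021 or A042 (adjusted p = 0.144, 0.0663 and 0.0515). The edgeR median without A031 was 2.76. Without a low-count filter edgeR called Car1 and Ermap, against 0.750% of all genes.

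Where mutant Runx1 was added to miR-146a loss (miR146aKO_Runx1mut against miR146aKO), edgeR called 0 of the 9 genes, against 0.0157% of all genes, 0 had an unadjusted p under 0.05, against 14.8% of all genes, and DESeq2 also called 0, against 5.06%. Car1 averaged 403 ± 349 CPM in miR146aKO_Runx1mut and 60.7 ± 54.3 in miR146aKO, a log2 fold change of 2.73 ± 1.53 (edgeR adjusted p = 0.427). Fold changes were positive for 8 of 9, against 49.6% of all genes. Without a low-count filter edgeR called Car1 (adjusted p = 0.0270), against 2.86% of all genes. The median of the 9 was 0.83, against -0.00935 over all genes, and it was 0.44 without A031. For the interaction, the Runx1mut fold change in cells lacking miR-146a less that in cells having it, edgeR and DESeq2 called 0 of the 9, against 0.0235% and 1.32% of all genes. In edgeR 1 gene, Car2, had a positive interaction at an unadjusted p under 0.05 (2.56 ± 1.13, adjusted p = 0.493), against 4.43% of all genes. Interaction values were positive for 8 of 9, against 50.9% of all genes, and without a low-count filter edgeR called 0, against 1.40%. The 3 comparisons with wildtype share its 3 libraries and are not independent of each other.

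Other genes of the red cell programme were read from lists of genes of known function. Over all genes, edgeR gave an unadjusted p under 0.05 with a higher level for 4.99% in miR146aKO_Runx1mut against wildtype and 8.81% in miR146aKO against wildtype, and with a lower level for 4.43% and 7.09%, against which the counts below are to be read. Of 21 genes of the red cell membrane and skeleton, 20 were tested and edgeR called none in any comparison. At an unadjusted p under 0.05 in edgeR, 7 were higher in miR146aKO_Runx1mut against wildtype and 6 in miR146aKO against wildtype. In miR146aKO_Runx1mut against Runx1mut 9 were higher, against 2.88% of all genes. DESeq2 called 2, 3 and 3 higher in these comparisons, against 0.840%, 4.38% and 0.549% of all genes. In Runx1mut against wildtype 1 was lower and in the interaction 3 were higher, against 2.88% and 4.43% of all genes. There, and in miR146aKO_Runx1mut against miR146aKO, where 0 had such a p, DESeq2 called 0. Fold changes were positive for 15 of 20 in miR146aKO_Runx1mut against wildtype and for 13 of 20 in miR146aKO against wildtype, with medians of 1.09 and 0.73, and for 5 of 20 in Runx1mut against wildtype (median -0.48, or -0.55 with genes that had a group at 0 set at their bound). In miR146aKO_Runx1mut against Runx1mut it was 18 of 20, with a median of 2.80. The abundant members of the list, Cd24a and Epb4.1, averaged 639 ± 195 and 248 ± 59.4 CPM in miR146aKO_Runx1mut, against 428 ± 163 and 240 ± 88.3 in wildtype.

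Add2 and Kel, named after their values were seen, were highest in A031, A051, A150 and A151. Add2, an adducin of the skeleton, had 1, 155 and 214 counts in miR146aKO_Runx1mut, 1, 119 and 39 in miR146aKO, 0, 2 and 0 in Runx1mut and 2, 0 and 1 in wildtype. Kel, a blood group antigen, had 0, 32 and 122 counts in miR146aKO_Runx1mut, 0, 89 and 19 in miR146aKO, and 0 in every Runx1mut and wildtype library. Haemoglobin gave no such signal. The table held 12 globin genes, of which 10 had 0 counts in every library, Hba-a1 among them, and the other 2, Hbb-bh1 and Hbq1b, had 1 count each, in A031 and A151. Globin genes are near-identical copies, and the treatment of multi-mapping reads is not known here. Ahsp, the chaperone of alpha globin, was not analysed here.

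Other transcription factors of the red cell lineage had mostly negative fold changes in each comparison with wildtype. Of 17 erythroid transcription factor genes, edgeR called none, and fold changes were positive for 2 of 17 in miR146aKO_Runx1mut against wildtype (median -0.70; 5 lower at an unadjusted p under 0.05, against 4.43% of all genes, and DESeq2 called 0). They were positive for 4 of 17 in miR146aKO against wildtype (median -0.95) and for 6 of 17 in Runx1mut against wildtype (median -0.43). In miR146aKO against wildtype 7 were lower at an unadjusted p under 0.05 in edgeR, against 7.09% of all genes. DESeq2 called 2 lower there, Nfe2 and Myb, against 2.26%. Fold changes in miR146aKO_Runx1mut were positive for 3 of 17 against Runx1mut (median -0.47) and for 8 of 17 against miR146aKO (median -0.00991), and in the interaction for 11 of 17 (median 0.81). Against miR146aKO, DESeq2 called 2 higher in miR146aKO_Runx1mut, Nfe2 and Myb, and 1 lower, E2f2, where it called 5.06% of all genes. Gata2, a factor of stem and progenitor cells and of mast cells, had 37, 2215 and 10 counts in miR146aKO_Runx1mut, 82, 66 and 70 in miR146aKO, 235, 5451 and 1171 in Runx1mut and 3369, 744 and 1391 in wildtype. Tal1, which works in a complex with Gata1, averaged 72.8 ± 64.7 CPM in miR146aKO_Runx1mut, 24.1 ± 12.4 in miR146aKO, 80.7 ± 77.6 in Runx1mut and 115 ± 46.1 in wildtype. Gfi1b, a repressor needed for red cells and megakaryocytes, averaged 11.7 ± 14.6, 4.28 ± 5.10, 28.3 ± 22.7 and 57.8 ± 42.9 CPM in the same order, and Zfpm1, the cofactor of Gata1, 48.1 ± 41.8, 34.0 ± 24.3, 34.6 ± 31.3 and 65.7 ± 37.3 CPM. Each of the 4 thus had its highest group mean in Runx1mut or wildtype. Myb, a progenitor factor, and Ikzf1 were the most abundant of the list, at 991 ± 177 and 491 ± 120 CPM in miR146aKO_Runx1mut, against 1016 ± 465 and 357 ± 138 in wildtype. Myb had 1705, 570 and 883 counts in miR146aKO, against 3527, 5985 and 8692 in wildtype.

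Of 14 other haem synthesis genes, 13 had positive fold changes in miR146aKO_Runx1mut against wildtype (median 0.54) and 11 in miR146aKO against wildtype (median 0.56), and edgeR called none (3 and 1 higher at an unadjusted p under 0.05, DESeq2 0 and 0). In Runx1mut against wildtype 11 of the 14 were positive too (median 0.54), with 0 at an unadjusted p under 0.05 in edgeR. Alas1, the form of the first haem enzyme made in most cells, averaged 294 ± 128 CPM in miR146aKO_Runx1mut, 49.1 ± 47.4 in miR146aKO, 328 ± 256 in Runx1mut and 176 ± 207 in wildtype, and Slc25a37, a mitochondrial iron importer, 92.6 ± 41.4, 125 ± 47.8, 99.2 ± 35.4 and 66.1 ± 20.6 CPM. Tfrc, the transferrin receptor, had 1911, 508 and 620 counts in miR146aKO_Runx1mut, 346, 160 and 174 in miR146aKO, 857, 185 and 768 in Runx1mut and 235, 471 and 572 in wildtype. It was highest in A001, where 8 of the 9 erythroid genes had at most 1 count. The 1 gene of all the red cell lists that edgeR called was Sh2b3, an inhibitor of erythropoietin and other cytokine signals, which rose in miR146aKO to 189 ± 44.9 CPM, against 41.5 ± 7.14 in wildtype (log2 fold change 2.18 ± 0.40, edgeR adjusted p = 0.0493). DESeq2 also called it (adjusted p = 9.94e-06), while edgeR lost the call with the Y-linked covariate (adjusted p = 0.279) and without A150, A151, A015, A040 or A053 (adjusted p = 0.124, 0.162, 0.0728, 0.113 and 0.174).

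Of 11 genes of iron uptake and export, fold changes were positive for 10 in miR146aKO_Runx1mut against wildtype and for 6 in miR146aKO against wildtype (medians 0.58 and 0.33). EdgeR called 0 and 0, with 2 and 4 higher at an unadjusted p under 0.05, against 4.99% and 8.81% of all genes. DESeq2 called 0 of the 11 in miR146aKO_Runx1mut against wildtype and 4 higher in miR146aKO against wildtype (Slc40a1, Slc11a2, Fth1 and Ftl1), against 0.840% and 4.38% of all genes. In Runx1mut against wildtype 8 of the 11 had positive fold changes (median 0.27), and edgeR and DESeq2 called 0. Slc40a1, the cellular iron exporter, which macrophages also make, stood at 115, 31.3 and 153 CPM in miR146aKO_Runx1mut, at 11.7, 870 and 1187 in miR146aKO, at 19.6, 1.71 and 48.9 in Runx1mut and at 1.51, 23.3 and 0.854 in wildtype (miR146aKO against wildtype, DESeq2 adjusted p = 0.00158, edgeR adjusted p = 0.108). The ferritin chain Ftl1 averaged 585 ± 293 CPM in miR146aKO_Runx1mut, 1831 ± 1018 in miR146aKO, 449 ± 127 in Runx1mut and 391 ± 124 in wildtype. Of 22 early erythroid progenitor genes, 17 and 11 had positive fold changes in miR146aKO_Runx1mut and in miR146aKO against wildtype (medians 1.16 and 0.06). EdgeR called 0 and 0, with 2 and 2 higher and 1 and 1 lower at an unadjusted p under 0.05. DESeq2 called Cldn13 higher in both, against 0.840% and 4.38% of all genes. In miR146aKO against wildtype it also called Muc13 lower, against 2.26%. In Runx1mut against wildtype 9 of the 22 were positive (median -0.27). Muc13 and Ctse, the members of this list with the highest mean log2 CPM, averaged 224 ± 165 and 551 ± 202 CPM in miR146aKO_Runx1mut, 64.5 ± 25.1 and 291 ± 83.8 in miR146aKO, 347 ± 259 and 105 ± 45.3 in Runx1mut and 448 ± 50.4 and 251 ± 384 in wildtype. Apoe, an apolipoprotein that macrophages also make, was singled out after its values were seen. It had 155, 1043 and 9003 counts in miR146aKO_Runx1mut, 243, 9907 and 4399 in miR146aKO, 105, 191 and 41 in Runx1mut and 1451, 912 and 285 in wildtype. DESeq2 called it in miR146aKO_Runx1mut against Runx1mut (adjusted p = 0.0134) and edgeR did not (adjusted p = 0.860). Of 17 tested genes of late red cell maturation, 14 and 10 had positive fold changes in miR146aKO_Runx1mut and in miR146aKO against wildtype (medians 0.43 and 0.39). Of 14 genes of erythropoietin signalling, 8 and 5 did (medians 0.09 and -0.11). In Runx1mut against wildtype 9 of the 17 and 8 of the 14 were positive (medians 0.26 and 0.15).

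Markers of other cell types moved with the 9 genes in part. The summed level of 13 resident macrophage markers was 743, 1150 and 8114 CPM in miR146aKO_Runx1mut, 214, 10682 and 8893 in miR146aKO, 125, 37.0 and 79.4 in Runx1mut and 34.6, 442 and 22.6 in wildtype, so its 4 highest libraries, A150, A151, A051 and A031, were also those of 5 of the 9 erythroid genes, though A031 had far less than the other 3. All 13 had positive fold changes in both miR146aKO_Runx1mut and miR146aKO against wildtype (12 and 12 at an unadjusted p under 0.05, against 4.99% and 8.81% of all genes that were higher), where edgeR called 0 and 0 and DESeq2 3 and 10, against 0.840% and 4.38%. Their defining gene C1qa had 14, 27 and 222 counts in miR146aKO_Runx1mut, 7, 575 and 57 in miR146aKO, 0, 2 and 1 in Runx1mut and 0, 96 and 1 in wildtype, so that wildtype A040 lay above A031 and A151. The summed level of 15 megakaryocyte markers was 44.4, 2928 and 2226 CPM in miR146aKO_Runx1mut, 177, 131 and 168 in miR146aKO, 284, 2434 and 1561 in Runx1mut and 2520, 1492 and 579 in wildtype. The megakaryocyte genes were thus high in A031 and A051 together with the erythroid genes, and low in A150 and A151, where the erythroid genes were also high. Of 12 mast cell and basophil markers the sum ran from 107 to 827 CPM in miR146aKO_Runx1mut, from 22.7 to 70.5 in miR146aKO, from 286 to 3300 in Runx1mut and from 278 to 474 in wildtype. That sum includes Gata2, also a factor of stem and progenitor cells, which had 3369, 744 and 1391 counts in wildtype. The defining mast cell gene Cpa3 had 41, 145 and 719 counts there, so the wildtype sum is no measure of mast cells alone. The sum of 12 B lineage markers lay between 97.9 and 740 CPM in miR146aKO_Runx1mut, between 11818 and 13207 in miR146aKO, between 23.5 and 1110 in Runx1mut and between 174 and 707 in wildtype, and it was thus about as high in A047, which had little erythroid signal, as in A150 and A151, while the mean log2 CPM of the 12 genes was lower in A047 (4.74) than in A150 (8.13) and A151 (8.44). That of 12 stromal and endothelial markers lay between 25.9 and 903 CPM in miR146aKO_Runx1mut, between 60.7 and 727 in miR146aKO, between 62.2 and 165 in Runx1mut and between 97.0 and 113 in wildtype. Its 3 highest libraries were A031 (903), A151 (727) and A150 (472), all with high erythroid genes, whereas A051 had the lowest sum. The sum of 8 eosinophil markers was 26.9, 80.8 and 164 CPM in miR146aKO_Runx1mut, 515, 242 and 231 in miR146aKO, 23.0, 14.5 and 374 in Runx1mut and 6.43, 91.5 and 14.5 in wildtype, while the defining gene Epx had 0 to 5 counts in any library. Of the 4 tested eosinophil genes, 4 had positive fold changes in miR146aKO_Runx1mut against wildtype (median 1.98) and 3 in miR146aKO against wildtype (median 2.85), and edgeR called 0 and 0. DESeq2 called Siglecf higher in the former, against 0.840% of all genes. In the latter it called Ear2 higher and Siglecf lower, against 4.38% and 2.26%. The sum of 12 T and NK cell markers ran from 58.3 to 698 CPM in miR146aKO_Runx1mut, from 269 to 2197 in miR146aKO, from 23.5 to 194 in Runx1mut and from 97.6 to 368 in wildtype. That of 12 neutrophil markers ran from 13665 to 60340 CPM in miR146aKO_Runx1mut, from 4045 to 12285 in miR146aKO, from 2765 to 58057 in Runx1mut and from 2374 to 28939 in wildtype, and that of 9 osteoclast markers from 92.9 to 870, from 131 to 237, from 68.8 to 434 and from 90.7 to 646 CPM in the same order of groups. The osteoclast sum includes Itgb3, also a megakaryocyte marker, with 4679 counts in wildtype A015. Acp5, the defining gene, had 185, 624 and 379 counts in miR146aKO, 1, 1 and 36 in Runx1mut and 12, 0 and 0 in wildtype. For Acp5, 1 of 4 tested osteoclast genes, every miR146aKO_Runx1mut library was above all of Runx1mut and wildtype. Against wildtype 6.32% of all genes were higher in miR146aKO_Runx1mut without overlap. DESeq2 called Acp5 higher in miR146aKO_Runx1mut against wildtype and Runx1mut and in miR146aKO against wildtype, against 0.840%, 0.549% and 4.38% of all genes. EdgeR called 0 of the 4 osteoclast genes. The part of these cell types in the erythroid values was not tested.

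**Figure D5:**
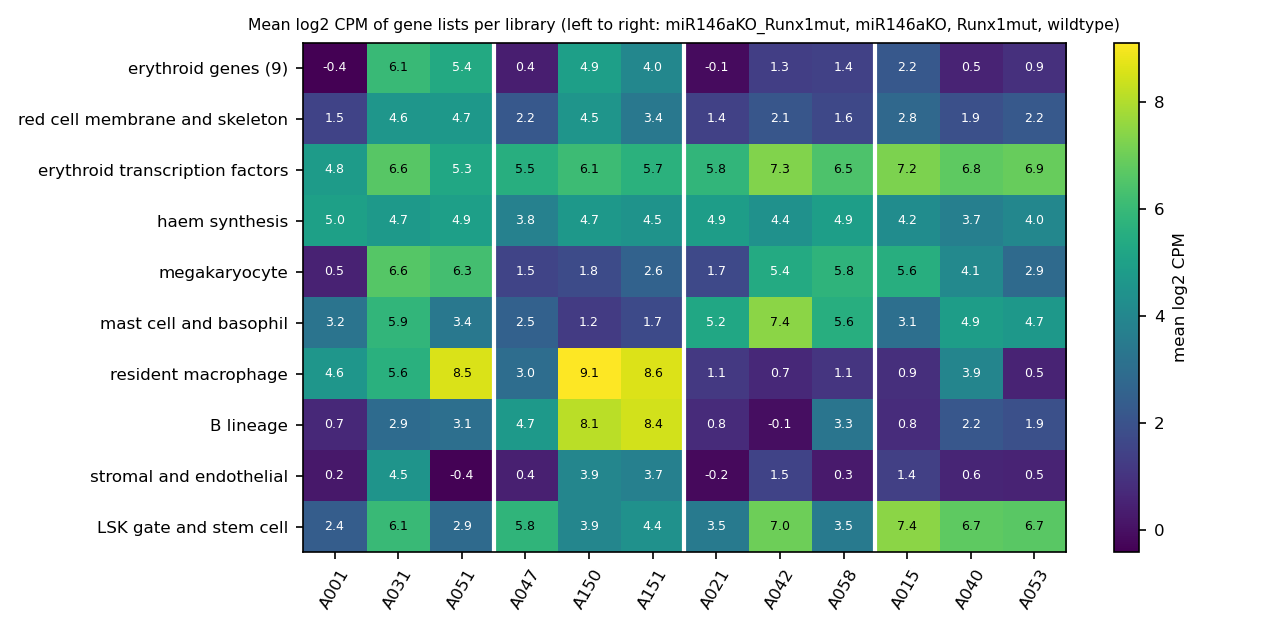
Colour and number give the mean log2 CPM (prior count 2) of each gene list in each library, with libraries in columns by group (miR146aKO_Runx1mut, miR146aKO, Runx1mut, wildtype). The 9 erythroid genes read 6.05 in A031, 5.38 in A051, 4.95 in A150 and 3.98 in A151, and at most 2.22 elsewhere, while the erythroid transcription factor list is highest in A042 and A015.

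Among 9584 tested genes with a mean log2 CPM of at least 2 that are neither members nor predicted gene models, 10 were closest to the mean centred log2 profile of the 9 genes over the 12 libraries. They were Spire1 (mean absolute difference 0.896 on the log2 scale), Gpr137b-ps (0.940), Sepp1 (0.951), Il18 (0.957), Snx25 (0.998), Gpx3 (1.04), Cela1 (1.04), Plekhm2 (1.04), Ctsl (1.05) and Hs6st1 (1.06), where the median gene differed by 2.02. Sepp1, for example, stood at 54.8, 310 and 763 CPM in miR146aKO_Runx1mut, at 78.1, 1972 and 1857 in miR146aKO, at 33.1, 129 and 67.4 in Runx1mut and at 115, 73.1 and 187 in wildtype. The members themselves, which make up that profile, differed from it by 0.583 for Epor, 0.752 for Klf1, 0.788 for Alas2, 0.859 for Slc4a1, 1.03 for Rhag, 1.33 for Ermap, 1.43 for Gata1, 1.67 for Car1 and 1.74 for Car2. Gata1, Car1 and Car2 thus had the largest differences. The measure is not scaled, so a gene that varies more between libraries also differs more. Car1 had its 4 highest libraries in A031, A051, A150 and A151, with 99.5% of its counts there. For Gata1 and Car2 that share was 54.5% and 28.3%.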

How the data were processed

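Raw read counts per gene symbol were deposited as a table of 12 columns. HISAT2 2.0.4 and featureCounts 1.5.2, FastQC 0.11.2 and the build mm10 are named in the submitters' processing notes. Per the labels' protocols, RNA was amplified with NuGEN Ovation v2 and made into libraries with Nextera XT, which does not keep strand. Column headers matched a genotype but no replicate number, so libraries are named by their column, and 0 count columns were left unused. Here edgeR 4.0.16 (R 4.3.3; TMM, default low-count filter, 1 fit over 12 libraries, Benjamini-Hochberg over 12744 genes, call at an adjusted p under 0.05; common biological coefficient of variation 0.809) was the test. DESeq2 1.42.0, limma-voom 3.58.1, other scaling, no filter, no Rn45s, a Y-linked covariate, the 2 groups alone and each library left out were tried. DESeq2 with each library left out was added after the data were seen. The script was tested on simulated data. Rn45s took 3.91% to 17.8% of counts. Counts of all 12 pairs of libraries within a group differed far beyond sampling noise (mean chi-square per gene 41.6 to 166). Amplified reads are not independent molecules. Genes were matched to GENCODE on GRCm38. The named genes were the 9 members, of each list the called genes or else the 2 most abundant, a few fixed factors and the 10 closest genes; exceptions are stated. The members, lists and rules were chosen with earlier results of these data known.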

Additional observations from a re-analysis of the deposited data

How the results depend on the processing

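The number of the 9 genes called was 0 in all 6 comparisons under TMM and RLE scaling, limma-voom, the fit without Rn45s and the fit with a Y-linked covariate. Without a low-count filter it was 2 in miR146aKO against wildtype, 1 in Runx1mut against wildtype (Car2), 2 in miR146aKO_Runx1mut against wildtype, 2 against Runx1mut and 1 against miR146aKO (Car1). DESeq2 called 2 genes in miR146aKO against wildtype, 2 in miR146aKO_Runx1mut against wildtype and 2 in miR146aKO_Runx1mut against Runx1mut, and the fit of only the 2 groups called 1 in miR146aKO against wildtype (Ermap). Leaving out 1 library gave 0 calls with edgeR, and with DESeq2 the calls ran from 0 to 3 in miR146aKO against wildtype, miR146aKO_Runx1mut against wildtype and miR146aKO_Runx1mut against Runx1mut, and from 0 to 1 in Runx1mut against wildtype and in the interaction.

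None of the fold changes that turned sign had been called, and the cause was not tested. In miR146aKO against wildtype Gata1 became -1.01 under limma-voom and -0.0954 with the Y-linked covariate, and -0.63 to 0.82 with 1 library left out. In Runx1mut against wildtype limma-voom gave Gata1 -0.99 and the Y-linked covariate gave Alas2 -1.11. With 1 library left out there, Epor ran from -1.18 to 1.70, Alas2 from -0.47 to 2.98, Ermap from -1.21 to 2.69, Rhag from -0.31 to 2.28 and Car1 from -2.06 to 0.020. With DESeq2 the Ermap and Car1 ranges were -1.37 to 2.80 and -2.20 to -0.0252. In miR146aKO_Runx1mut against wildtype Gata1 became -0.39 under limma-voom. In miR146aKO_Runx1mut against miR146aKO limma-voom gave Klf1 -0.79, Epor -1.34 and Ermap -1.18, and with 1 library left out Slc4a1 ran from -3.25 to 0.70, Car2 from -0.49 to 0.79, Epor from -0.94 to 1.08 and Klf1 from -0.53 to 1.86.

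No paired analysis was possible because the count columns carry no replicate number. Low counts limit Car1, Klf1, Epor, Alas2, Ermap and Slc4a1, which had 10 or more counts in 4 to 7 of the 12 libraries, and a count of 0 allows up to 3 counts. Detection did not simply follow depth. Car1 had 0 counts in A042, of 7026393 in all, and 301 in A151, of 3959581.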
